A study of Mus musculus with 4 samples.

Results

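Iron and haem handling was examined through 10 genes, taken by symbol from the 32285 genes of the deposited count tables: *Hmox1* and *Blvrb* of haem breakdown, the ferritin subunits *Fth1* and *Ftl1*, the iron exporter *Slc40a1*, the endosomal iron transporters *Slc11a1* and *Slc11a2*, the uptake genes *Tfrc* and *Trf*, and *Spic*, a transcription factor. Each symbol had 1 row. The data were 4 scRNA-seq libraries of tibial muscle from *Nse-Bmp4* mice, a heterotopic ossification (HO) model in which the Nse promoter drives *Bmp4*. One library was Uninjured, and the other 3 followed cardiotoxin, a snake venom toxin that kills myofibers, by 1 day, 3 days and 7 days (1, 3 and 7 dpi, for days after injury). All mice were C57BL/6 and 6 to 8 weeks old, and every library, Uninjured included, carried the transgene, so no wild-type level was at hand. Each library pooled 3 muscles and each time point had 1 library. No difference between time points therefore had a replicate check, no p-value was computed, and all intervals below are 95% intervals that cover counting error only.

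Muscle injury releases myoglobin and red cells, and phagocytes take up the haem. *Hmox1* opens the haem ring and frees iron, and *Blvrb* reduces biliverdin. Freed iron is stored in ferritin or leaves the cell through ferroportin, the product of *Slc40a1*, while most cells import iron by binding transferrin, the product of *Trf*, to the receptor encoded by *Tfrc*. Iron regulatory proteins hold this network in balance by binding a stem-loop in the mRNA, the iron-responsive element (IRE): in a 5′ UTR the bound protein blocks translation, and in the 3′ UTR of *Tfrc* it protects the mRNA from decay. Counts of mRNA read the second kind of control and not the first.

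The stem-loops are shown because they sort the 10 genes by how far mRNA counts can follow their regulation. A search of the GENCODE transcripts of GRCm38 for an unpaired C, 5 bases, the loop CAGTGN and 5 more bases, on the transcript strand only and with the 5 bases on either side of the loop pairing (G with T allowed), found a match in the UTRs of 4 of the 10 genes. Over all 21877 protein-coding genes, 123 (0.562%) had a match in a UTR. The loop is in capitals, and each run is 28 bases, 5′ to 3′.
Slc40a1, 5′ UTR, chr1:45925466-45925493, minus strand: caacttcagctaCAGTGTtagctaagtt
Fth1, 5′ UTR, chr19:9982732-9982759, plus strand: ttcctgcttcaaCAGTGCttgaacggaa
Ftl1, 5′ UTR, chr7:45459780-45459807, minus strand: gtcttgcttcaaCAGTGTttgaacggaa
Tfrc, 3′ UTR, chr16:32631219-32631246, plus strand: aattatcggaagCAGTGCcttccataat
Tfrc, 3′ UTR, chr16:32631598-32631625, plus strand: cattatcgggagCAGTGTcttccataat
Tfrc, 3′ UTR, chr16:32631663-32631690, plus strand: ctatatcggagaCAGTGAtctccatatg
Tfrc, 3′ UTR, chr16:32631710-32631737, plus strand: aattatcgggaaCAGTGTttcccataat
*Slc40a1*, *Fth1* and *Ftl1* thus held 1 match each in the 5′ UTR, and *Tfrc* held 4 in the 3′ UTR. No match was found in *Slc11a2*, *Trf*, *Hmox1*, *Blvrb*, *Slc11a1* or *Spic*, which says only that these letters were not there. The antioxidant response element core TGACNNNGC, which NRF2 binds, was searched for on both strands of the 300-base RefSeq promoter windows of GRCm38. None of the 9 windows at hand for 6 of the genes held it, against 12.4% of all windows. So few windows cannot set an absence apart from that share, and sequence outside the windows was not searched.

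The libraries held 11722 to 23752 deposited cells, and their median depth went down along the series, from 8629 UMIs per cell in Uninjured to 5561.5, 4214 and 3083 at 1, 3 and 7 dpi. After filtering, 52853 of 62665 cells were kept and 41215 of these entered 1 of 19 cell classes by markers, from 93.5% of kept cells in Uninjured to 68.8% at 7 dpi. No class had a marker of another class among its 10 leading genes, although those of MSC lineage cells, led by *Clec3b*, *Myoc* and *Ccl11*, held none of the 6 markers that gated them. Pairs of libraries shared 30 to 95 cell barcodes. Levels are UMIs of a gene per 1000000 UMIs of the class (CPM) in 1 library, given for classes of at least 30 cells unless stated. Haemoglobin chains, which can come from red-cell carry-over, were summed. In Uninjured, 1, 3 and 7 dpi they stood at 199, 6.84, 4.25 and 109 CPM in MSC lineage cells. In C1q macrophages of the same libraries they stood at 38.4, 9.77, 7.42 and 13.4 CPM. The sum differed between classes of 1 library, with 90.4 CPM in chondrocytes but 9.95 CPM in T cells at 7 dpi. Schwann cells had 756 CPM at 3 dpi. The source of these UMIs and their part in the levels below were not tested. In bulk sums of this kind, fewer expressing cells and less RNA per cell give the same value, so the share of cells with a UMI is given for the main genes.

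**Figure D1:**
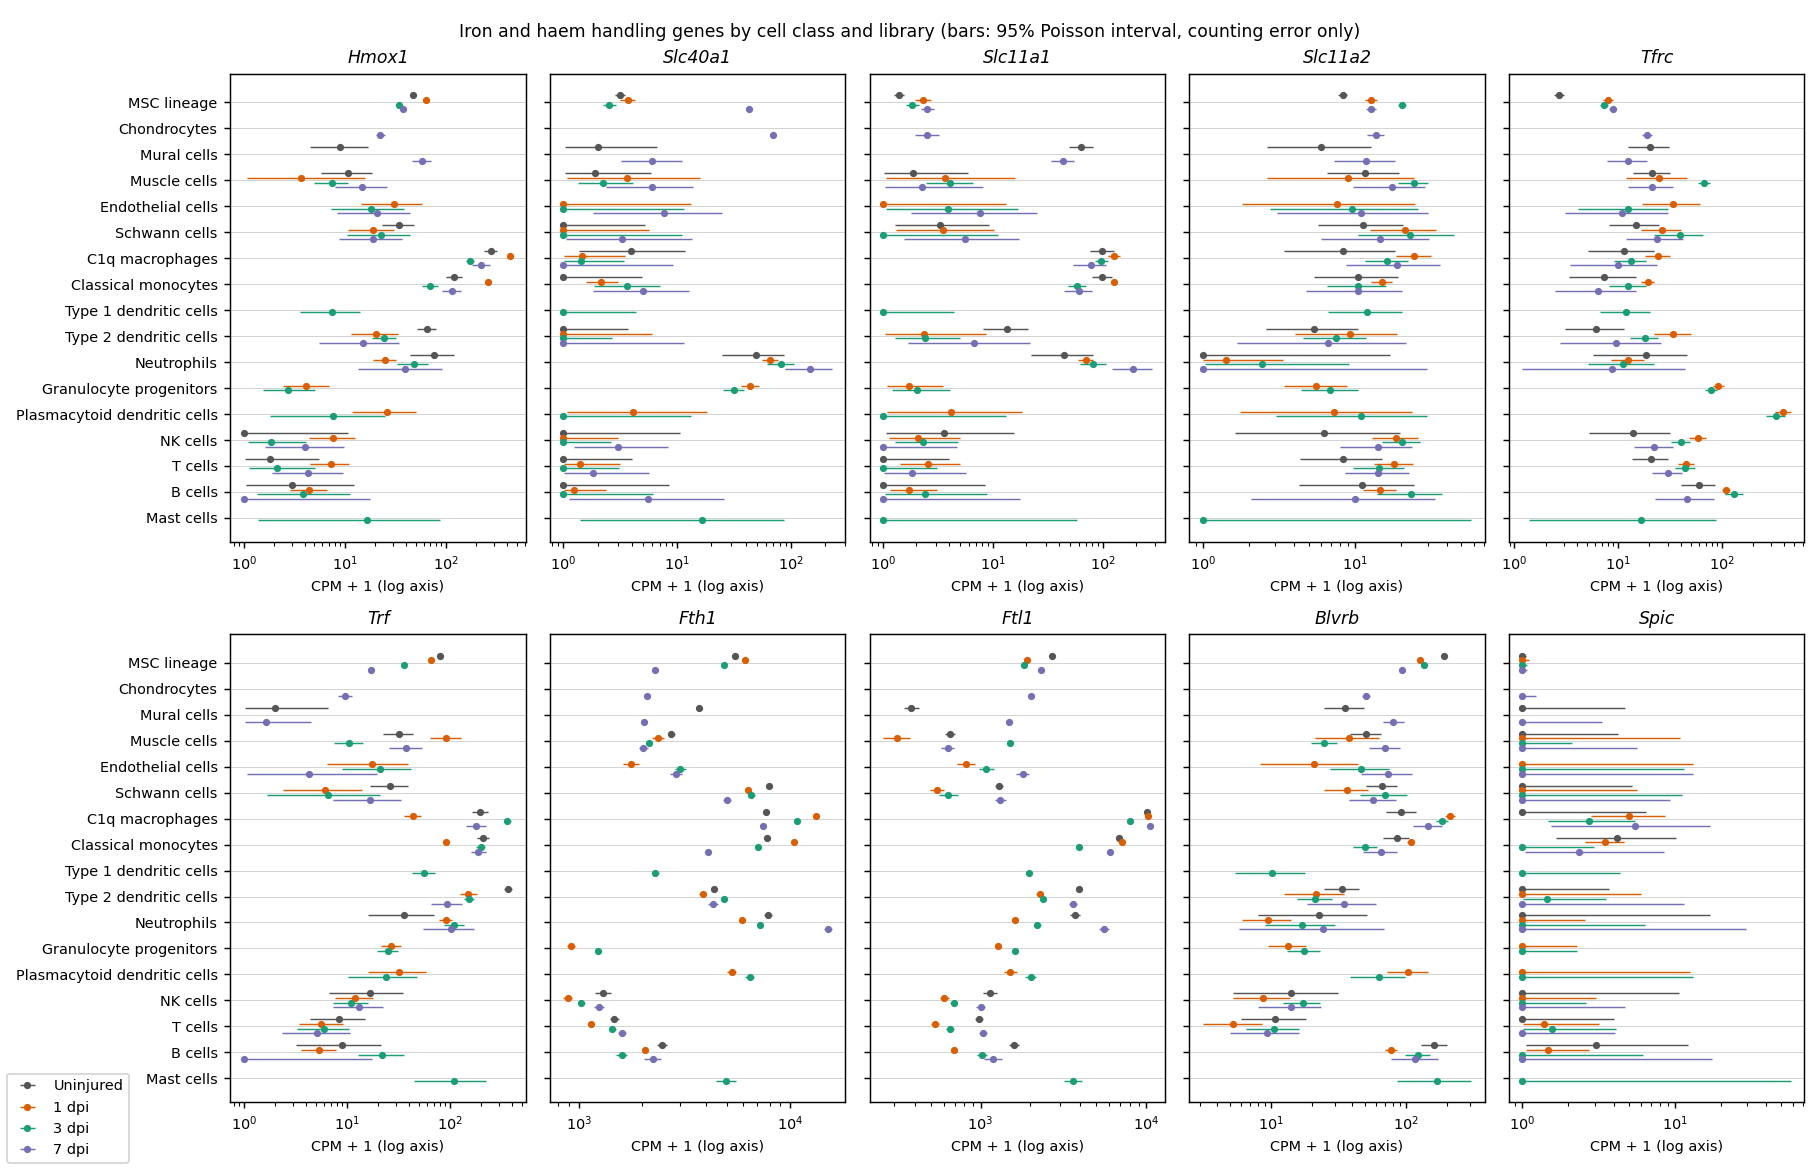
Level of each of the 10 genes (x axis, CPM + 1, log scale) in each cell class (rows) with at least 30 cells in a library; colors mark Uninjured, 1, 3 and 7 dpi, points are the level and bars its 95% Poisson interval. *Hmox1* is highest in C1q macrophages in all 4 libraries, *Slc40a1* in neutrophils, and *Tfrc* at 1 and 3 dpi in plasmacytoid dendritic cells.

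*Hmox1*, the inducible haem oxygenase (GRCm38 chr8:75093621-75100589, plus strand), was highest in C1q macrophages in all 4 libraries, and its interval there did not overlap that of classical monocytes, the next class. In C1q macrophages *Hmox1* stood at 275 CPM in Uninjured, 423 CPM at 1 dpi, 172 CPM at 3 dpi and 222 CPM at 7 dpi (186, 954, 393 and 99 UMIs). In classical monocytes it stood at 119, 258, 68.6 and 114 CPM. Both classes thus had their highest value at 1 dpi and their lowest at 3 dpi, although after thinning every cell to 1000 UMIs the macrophage log2 ratio of 7 against 3 dpi came to -0.13. In monocytes *Hmox1* was 2.16-fold higher at 1 dpi than in Uninjured (1.79 to 2.63) and then 3.76-fold lower at 3 dpi (3.15 to 4.51). In macrophages the first step was 1.54-fold (1.32 to 1.81) and the second 2.47-fold lower (2.19 to 2.78), although after thinning the log2 ratios became 1.11 and -0.78, which puts the first step past 2-fold and takes the second below it. The macrophage level was 6.03, 6.84, 5.17 and 6.04 times that of MSC lineage cells of the same library, so the distance between these classes ran from 5.17- to 6.84-fold while both levels moved.

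There were 75, 313, 440 and 99 C1q macrophages in Uninjured, 1, 3 and 7 dpi. The share of them with an *Hmox1* UMI was 60.0%, 72.8%, 40.5% and 33.3% at median depths of 8235, 6385, 5259 and 3833 UMIs. Thinned to 1000 UMIs it was 13.3%, 27.2%, 15.7% and 13.98%, with 0 to 14 shallower cells left out per library. T cells, which should have little of the gene, had a UMI in 0.321%, 2.64%, 0.319% and 0.424% of cells at median depths of 3558.5, 4129, 2598 and 2042 UMIs. The thinned shares kept the peak at 1 dpi and set the other 3 libraries close together. MSC lineage cells had *Hmox1* at 45.6, 61.9, 33.2 and 36.7 CPM, with the same peak at 1 dpi at a lower level. In neutrophils the level at 1 dpi, 23.6 CPM, was the lowest of the 4, against 74.2 CPM in Uninjured, 3.14-fold lower (1.71 to 5.48), on 56 and 17 UMIs. Mural cells had 8.03 CPM in Uninjured and 56.4 CPM at 7 dpi.

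*Blvrb*, biliverdin reductase B (chr7:27447978-27466144, plus strand), was spread over more classes than *Hmox1*. In C1q macrophages it was at 91.6, 212, 184 and 146 CPM, 2.32-fold higher at 1 dpi than in Uninjured (1.77 to 3.07), a step that came to 0.53 on the log2 scale after thinning. In MSC lineage cells it went the other way, with 191 CPM in Uninjured, 127 CPM at 1 dpi, 134 CPM at 3 dpi and 91.9 CPM at 7 dpi. MSC lineage cells were therefore the highest class in Uninjured, with an interval that overlapped that of B cells, and macrophages the highest at 1 dpi. Classical monocytes had 84.4, 107, 48.7 and 64.4 CPM, and the step from 1 to 3 dpi was 2.21-fold lower (1.78 to 2.76), or -0.87 on the log2 scale after thinning. Erythroid cells, few in number, had the highest values, 1234.5 CPM at 1 dpi (12 cells) and 1120 CPM at 3 dpi (21 cells). T cells and NK cells had 4.27 to 16.1 CPM in every library.

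Ferritin stores iron in a shell of heavy and light subunits, and its mRNAs were among the abundant ones of nearly all classes. *Fth1*, the heavy subunit with ferroxidase activity, was at 7681, 13189, 10796 and 7445 CPM in C1q macrophages and at 7749, 10438, 7059 and 4086 CPM in classical monocytes. Both peaked at 1 dpi, and no step between successive libraries reached 2-fold in either class. In Uninjured the highest class was Schwann cells (7976 CPM), with an interval that overlapped that of neutrophils. In MSC lineage cells *Fth1* was at 5490, 6127, 4842 and 2303 CPM, and 7 dpi was 2.10-fold lower than 3 dpi (2.09 to 2.12), a step of -1.07 on the log2 scale that came to -0.99 with median-ratio size factors. Neutrophils moved the opposite way at that step, from 7192 to 15082 CPM, 2.10-fold higher (1.99 to 2.21), in 80 cells with a median of 1315.5 UMIs. Summed haemoglobin in neutrophils stood at 384, 11.0, 17.5 and 38.7 CPM, and its part in the neutrophil values was not tested.

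*Ftl1*, the light subunit, had its highest level in C1q macrophages in all 4 libraries, at 10142, 10221, 7995 and 10495 CPM, with no overlap with the next class. The macrophage levels of Uninjured, 1 dpi and 7 dpi lay close together, with a ratio of 1.01 (0.981 to 1.04) between 1 dpi and Uninjured. Classical monocytes had 6828, 7186, 3933 and 6028 CPM and MSC lineage cells 2696, 1911, 1822 and 2307 CPM. In neutrophils *Ftl1* was at 3709, 1617, 2198 and 5574 CPM, 2.29-fold lower at 1 dpi than in Uninjured (2.13 to 2.47) and 2.54-fold higher at 7 than at 3 dpi (2.32 to 2.77). The ferritin genes thus parted at 7 dpi in MSC lineage cells, where *Fth1* was less than at 3 dpi and *Ftl1* was 1.27-fold higher (1.26 to 1.28). Near-identical copies exist for both genes, and *Ftl1-ps1* has a row of its own in the tables, so reads that fit several copies may have been lost or split.

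**Figure D2:**
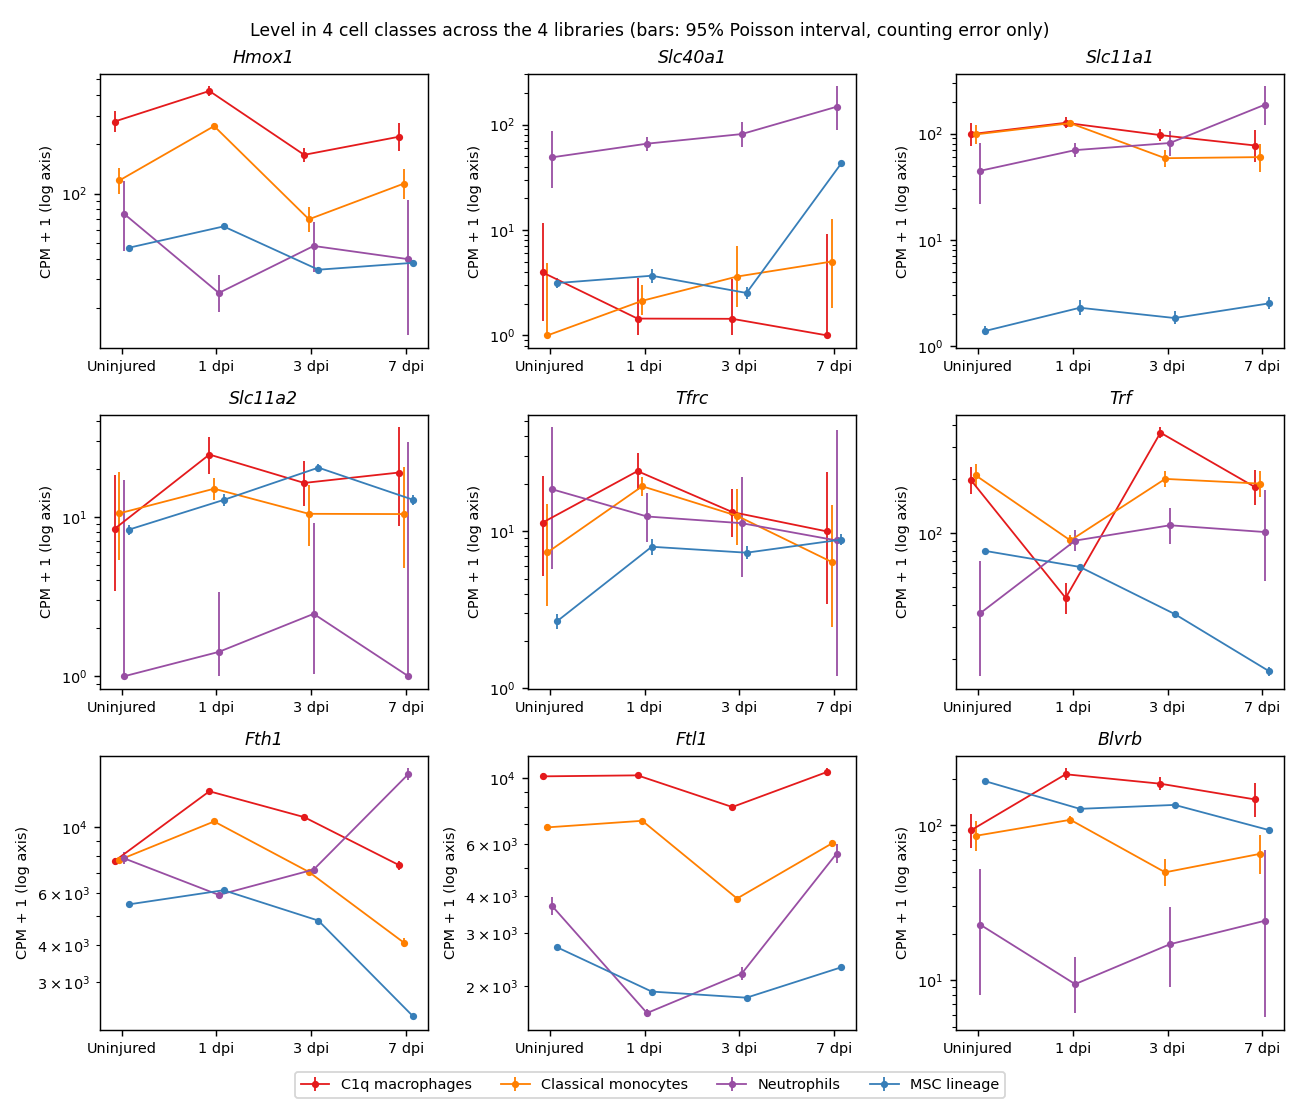
Level of 9 of the genes (y axis, CPM + 1, log scale) across Uninjured, 1, 3 and 7 dpi (x axis) in C1q macrophages, classical monocytes, neutrophils and MSC lineage cells; points are single libraries, bars 95% Poisson intervals, and the lines only join the points of a class. *Trf* in macrophages is lowest at 1 dpi (42.6 CPM) and highest at 3 dpi (362 CPM), and *Slc40a1* in MSC lineage cells stands apart at 7 dpi (42.0 CPM).

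*Slc40a1*, encoding the iron exporter ferroportin (chr1:45908068-45926523, minus strand), was highest in neutrophils in all 4 libraries and hardly counted in macrophages. Neutrophils had 48.0, 65.0, 80.4 and 147 CPM on 11, 154, 55 and 19 UMIs, with intervals that did not overlap those of the next class. Granulocyte progenitors had 42.8 CPM at 1 dpi and 30.4 CPM at 3 dpi. The neutrophil level at 7 dpi was 3.06-fold that of Uninjured (1.38 to 7.12), and the steps between successive libraries were all below 2-fold. Only 2, 1, 1 and 0 UMIs were found in C1q macrophages, at or under the 3 UMIs taken as the floor, and 0, 11, 5 and 3 in classical monocytes. Erythroid cells, which use ferroportin as well, had 34.5 and 44.9 CPM at 1 and 3 dpi.

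MSC lineage cells had *Slc40a1* at 2.14 CPM in Uninjured, 2.68 CPM at 1 dpi, 1.53 CPM at 3 dpi and 42.0 CPM at 7 dpi, on 165, 91, 82 and 2389 UMIs. The 7 dpi level was 27.5-fold that of 3 dpi (22.1 to 34.7) and 19.6-fold that of Uninjured (16.8 to 23.1). On the log2 scale the step from 3 dpi was 4.78, 4.0 after thinning and 4.14 from the mean of per-cell CPM. This was the largest step among the 10 genes in MSC lineage cells between successive libraries. Chondrocytes, found only at 7 dpi (3337 cells), had 69.3 CPM on 1103 UMIs. In the same library T cells had 0.829 CPM, Schwann cells 2.26 CPM, muscle cells 5.04 CPM, mural cells 5.07 CPM and endothelial cells 6.63 CPM, so the level in the mesenchymal classes was above that of the other stromal classes. Summed haemoglobin in MSC lineage cells was higher at 7 dpi (109 CPM) than at 3 dpi (4.25 CPM) as well, and stood at 199 CPM in Uninjured.

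The UMIs came from many cells. At 7 dpi 784 MSC lineage cells had 1 UMI, 440 had 2 or more, and the cell with the most held 27, or 1.13% of the class total. The share of MSC lineage cells with a UMI was 1.86%, 2.21%, 1.44% and 14.3% at median depths of 9240, 8484, 6872 and 4653 UMIs, and thinned to 1000 UMIs it was 0.234%, 0.482%, 0.242% and 3.54%. Among T cells 0, 1, 0 and 1 cells had a UMI, and the 0 of 312 in Uninjured allow a share of up to 1.18% (Clopper-Pearson). The higher share at 7 dpi was thus found in the library of the lowest depth.

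MSC lineage cells and chondrocytes of 7 dpi share a lineage, so the MSC lineage cells were also divided, after the values were seen, by how many of the 6 chondrocyte markers (*Acan*, *Col9a2*, *Col9a3*, *Hapln1*, *Col11a2* and *Matn1*) had a UMI. With 0 markers *Slc40a1* stood at 16.9 CPM (3016 cells), with 1 marker at 25.2 CPM (2822 cells) and with 2 or more at 72.8 CPM (2742 cells). The last was 4.30-fold the first (3.77 to 4.92) and close to the chondrocyte value. Median depth went up with the number of markers, from 3275.5 to 4647 and 6924 UMIs. When cells were first thinned to 1000 UMIs and the markers then counted anew, after which most cells had 0 markers, the share of cells with a *Slc40a1* UMI was 2.80% of 5743, 5.29% of 1965 and 7.12% of 618 cells with 0, 1 and 2 or more markers. Cells with 0 markers had 2.15, 2.63 and 1.53 CPM in Uninjured, 1 and 3 dpi, so the level at 7 dpi was higher also in cells without a detected chondrocyte marker. Along the same division at 7 dpi *Tfrc* was 2.92-fold higher with 2 or more markers than with 0 (2.23 to 3.87), *Slc11a1* 4.06-fold lower on 16 and 44 UMIs, *Trf* 2.02-fold lower, *Fth1* 1.39-fold lower and *Slc11a2* 1.02-fold higher (0.847 to 1.24). In Uninjured, where only 8 cells had 2 or more markers, *Trf* was higher in them, 2.49-fold (1.5 to 3.90) on 19 UMIs. At 7 dpi only *Slc40a1* and *Tfrc* of the 10 genes were more than 2-fold higher with 2 or more markers than with 0. No share of all genes stands beside this count, and the cells differ in depth, so it is a description.

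**Figure D3:**
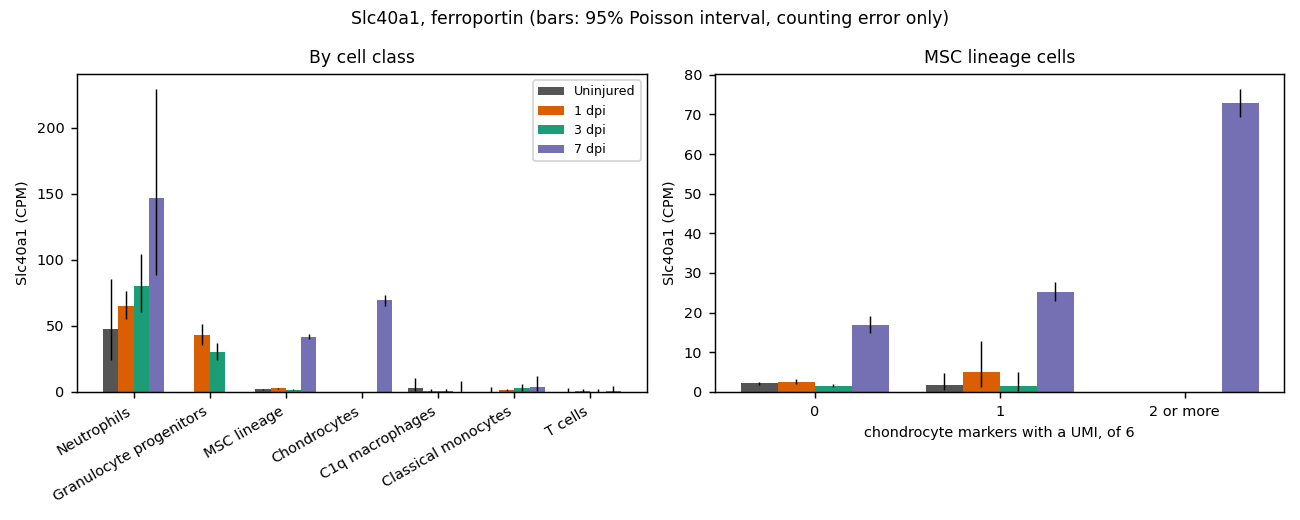
Level of *Slc40a1* (y axis, CPM) by cell class (left) and in MSC lineage cells by the number of 6 chondrocyte markers with a UMI (right); colors mark the 4 libraries, bars start at 0 and error bars are 95% Poisson intervals. A missing bar is a class of fewer than 30 cells or a level of 0; at 7 dpi the bars go up from 16.9 to 25.2 and 72.8 CPM with 0, 1 and 2 or more markers.

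*Slc11a1* and *Slc11a2* encode transporters that move iron out of endosomes and phagosomes. *Slc11a1*, the phagosomal one, was highest in a myeloid class in every library, but mural cells had it as well. Granulocyte progenitors, also myeloid, had only 0.702 CPM at 1 dpi and 1.04 CPM at 3 dpi. C1q macrophages had 97.6, 125, 95.6 and 76.1 CPM, classical monocytes 97.1, 124, 57.6 and 59.0 CPM, and neutrophils 43.6, 68.8, 80.4 and 186 CPM. Macrophages led in the first 3 libraries, each time with an interval that overlapped the next class, and neutrophils led at 7 dpi without overlap. In monocytes 3 dpi was 2.15-fold lower than 1 dpi (1.77 to 2.64), a step of -0.63 on the log2 scale after thinning, and in neutrophils 7 dpi was 2.31-fold higher than 3 dpi (1.37 to 3.79), on 24 and 55 UMIs. Mural cells had 62.2 CPM in Uninjured and 41.8 CPM at 7 dpi, and no other class of at least 30 cells outside the myeloid lineage was above 10 CPM. MSC lineage cells had 0.389, 1.30, 0.838 and 1.53 CPM on 30, 44, 45 and 87 UMIs, and 1 cell held 20 of the 87 UMIs of 7 dpi.

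*Slc11a2*, the widely used divalent metal transporter, was low in all classes, and muscle cells and C1q macrophages alternated as the leading class, always with an interval that overlapped the next. MSC lineage cells had 7.29, 11.7, 19.3 and 11.8 CPM on 563, 398, 1036 and 669 UMIs, highest at 3 dpi and 2.65-fold above Uninjured there (2.39 to 2.94). Muscle cells were highest at 3 dpi too, with 10.6, 7.97, 23.2 and 16.4 CPM. C1q macrophages had 7.39, 23.5, 15.3 and 17.9 CPM on 5, 53, 35 and 8 UMIs. The step at 1 dpi was 3.18-fold (1.28 to 10.2) and came to -0.64 on the log2 scale after thinning. Thinning leaves few of the 5 UMIs of Uninjured, and a count of 0 is set to the floor of 3 UMIs. The thinned value therefore cannot show a reversal. Neutrophils had 0, 1, 1 and 0 UMIs.

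*Tfrc*, the transferrin receptor (chr16:32608920-32632794, plus strand), followed other classes than the genes above. Plasmacytoid dendritic cells had 388 CPM at 1 dpi and 329 CPM at 3 dpi, and 34 of 38 and 36 of 61 cells had a UMI (89.5% and 59.0%). B cells had 58.6, 109, 131 and 44.9 CPM, granulocyte progenitors 91.3 and 78.0 CPM at 1 and 3 dpi, and erythroid cells, which import iron for haemoglobin, 671 CPM (12 cells) and 497 CPM (21 cells). Of the classes with at least 30 cells the plasmacytoid cells were thus the highest at 1 and 3 dpi, without overlap with B cells. T cells had 19.6, 44.2, 43.2 and 29.0 CPM and NK cells 13.1, 57.6, 39.3 and 21.3 CPM. Muscle cells had 20.4, 23.9, 66.0 and 20.2 CPM, with the highest value at 3 dpi.

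Among MSC lineage cells *Tfrc* stood at 1.67 CPM in Uninjured and at 6.96, 6.30 and 7.84 CPM at 1, 3 and 7 dpi, on 129, 236, 338 and 446 UMIs. The step at 1 dpi was 4.16-fold (3.35 to 5.20), and the 3 injured libraries lay within 1.25-fold of one another. In C1q macrophages the level was 10.3, 23.1, 12.2 and 8.96 CPM. The 2.23-fold step at 1 dpi (1.01 to 5.82) rested on 7 and 52 UMIs and came to -0.057 on the log2 scale after thinning. Classical monocytes had 6.33, 18.3, 11.5 and 5.37 CPM, 2.89-fold higher at 1 dpi (1.30 to 7.98) on 178 against 6 UMIs, a step of 0.21 on the log2 scale after thinning. Thinning leaves few of the 7 and 6 UMIs of Uninjured, and a count of 0 is set to the floor of 3 UMIs. These thinned values therefore cannot show whether the steps were lost. The step in MSC lineage cells was thus the one that rested on more than 100 UMIs in both libraries.

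Proliferating cells import iron through this receptor, so MSC lineage cells were divided by 6 cell cycle genes (*Mki67*, *Top2a*, *Cdk1*, *Birc5*, *Tpx2* and *Ccnb1*), calling a cell cycling where at least 3 of them had a UMI. There were 85, 93, 719 and 1204 cycling cells, with a median of 16560, 19723, 19151 and 6103.5 UMIs against 9211, 8355, 6000.5 and 4328.5 UMIs in the others. The ratio of *Tfrc* in cycling to other cells was 2.55 in Uninjured (0.916 to 5.70), 2.44 at 1 dpi (1.59 to 3.61), 1.32 at 3 dpi (1.04 to 1.67) and 1.37 at 7 dpi (1.08 to 1.71). It was above 1 in 4 of 4 libraries, with an interval above 1 in the 3 injured ones. The division moves many genes: 25.7%, 26.0%, 19.2% and 9.13% of all genes tested in Uninjured, 1, 3 and 7 dpi were at least 2-fold apart between cycling and other cells, which differ in depth as well. *Slc11a2* had ratios of 1.23, 1.68, 1.43 and 1.23. *Hmox1* was lower in cycling cells in all 4 libraries, by 2.68-, 4.10-, 1.81- and 1.31-fold. *Trf* was 4.09-fold lower in cycling cells at 1 dpi and 4.29-fold lower at 3 dpi, but 1.10 times the level of the others in Uninjured (0.911 to 1.31) and 0.859 times at 7 dpi (0.712 to 1.03). *Fth1* was lower in cycling cells in every library, with ratios of 0.733, 0.806, 0.728 and 0.873. Among non-cycling cells *Tfrc* was 1.62 CPM in Uninjured and 6.46 CPM at 1 dpi, so the step at 1 dpi was found in them as well.

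**Figure D4:**
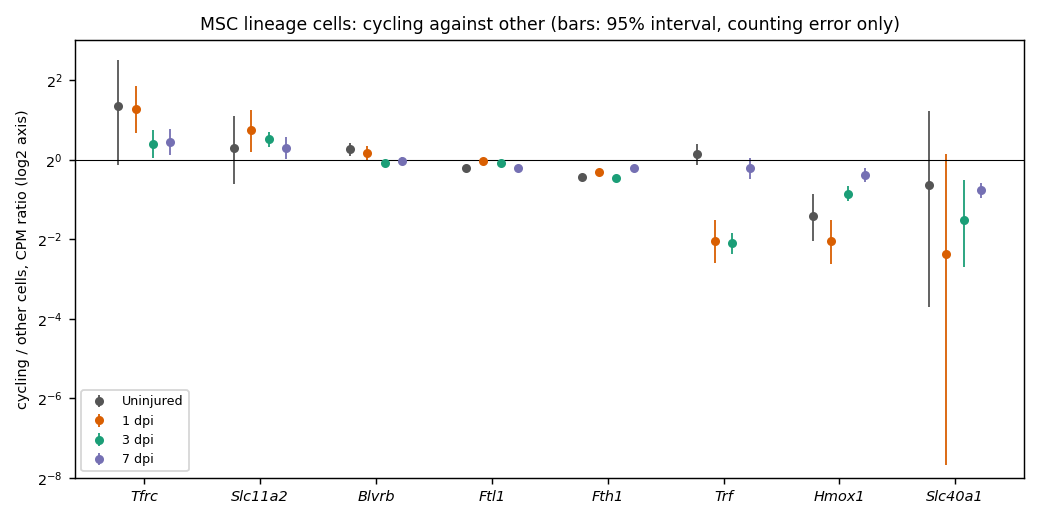
Ratio of the level in cycling to that in other MSC lineage cells (y axis, log2 scale) for 8 of the genes in each library; bars are 95% conditional binomial intervals for counting error and the line marks a ratio of 1. *Tfrc* lies above 1 in all 4 libraries and *Hmox1* and *Fth1* below 1 in all 4.

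*Trf*, encoding transferrin (chr9:103204001-103230444, minus strand), showed the widest swings in myeloid cells. C1q macrophages had 197 CPM in Uninjured, 42.6 CPM at 1 dpi, 362 CPM at 3 dpi and 179 CPM at 7 dpi, on 133, 96, 828 and 80 UMIs. The level was 4.61-fold lower at 1 dpi than in Uninjured (3.52 to 6.06) and 8.48-fold higher at 3 than at 1 dpi (6.86 to 10.6). Both steps rest on the single 1 dpi library. At 7 dpi it was 2.02-fold lower than at 3 dpi (1.60 to 2.57), or -1.01 on the log2 scale, which was -0.96 without doublet removal. The share of macrophages with a *Trf* UMI was 70.7%, 17.6%, 63.6% and 39.4%, and thinned to 1000 UMIs 18.7%, 3.21%, 28.2% and 11.8%, against 0.641%, 0.176%, 0.660% and 0.649% of thinned T cells. The dip at 1 dpi and the peak at 3 dpi were thus present in the share of cells as well. The macrophage gene *Csf1r* had the same order within the class, at 395, 215, 578 and 325 CPM. So did *Mrc1*, one of the markers of the gate, at 376.9, 279, 632 and 358 CPM. The 6 C1q macrophage markers of the gate summed to 8282, 6754, 11692 and 9890 CPM, with 7 dpi above Uninjured. *Cd163* had another order, at 47.3, 5.33, 10.0 and 4.48 CPM. The 6 classical monocyte markers summed to 1342 CPM in C1q macrophages of Uninjured, 4474 CPM at 1 dpi, 1907 CPM at 3 dpi and 1326 CPM at 7 dpi. The monocyte marker sum was thus highest at 1 dpi, where *Hmox1* was highest and *Trf* lowest. In the other libraries its order was not that of *Hmox1*. Such sums do not tell a changed make-up of the class from changed RNA per cell. The part of either in these levels was not tested.

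Classical monocytes dipped less, and other myeloid classes followed other courses. Classical monocytes had 209, 90.1, 200 and 188 CPM of *Trf*, 2.32-fold lower at 1 dpi (1.98 to 2.71) and 2.21-fold higher at 3 dpi (1.96 to 2.50). Type 2 dendritic cells had 369, 151, 153 and 93.5 CPM and were the highest class in Uninjured, while macrophages were the highest at 3 dpi, both without overlap. Neutrophils had 34.9, 89.9, 110 and 101 CPM on 8, 213, 75 and 13 UMIs, so they did not share the dip.

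MSC lineage cells had *Trf* at 78.7, 63.9, 34.5 and 16.0 CPM, lower in each later library, 2.15-fold lower at 7 than at 3 dpi (1.99 to 2.34) and 4.92-fold lower at 7 dpi than in Uninjured (4.58 to 5.28). A small number of cells held much of it. In Uninjured 99 of 8120 cells (1.22%) had 10 or more *Trf* UMIs and held 31.9% of the total, and the cell with the most held 108. At 1, 3 and 7 dpi 33, 22 and 10 cells (0.935%, 0.406% and 0.117%) reached 10 UMIs and held 37.3%, 24.2% and 14.5% of the total. These cells, set apart by *Trf* after the values were seen, also had much *Apod*, encoding a lipid-binding apolipoprotein, with 6762 CPM against 501 CPM in the other MSC lineage cells of Uninjured and 15628 against 859 CPM at 1 dpi. *Apoe* was at 2333 against 285 CPM in Uninjured and *Rasgrp2* at 382 against 26.1 CPM, with a UMI in 86 and 67 of the 99 cells. Median depth was 11017 UMIs in the *Trf*-rich and 9218 UMIs in the other cells of Uninjured. At 1, 3 and 7 dpi it was 10343, 10243.5 and 6865 UMIs against 8469, 6865 and 4647 UMIs. The cut of 10 UMIs was the same in all libraries, and the part of depth in the number of *Trf*-rich cells was not tested. In Uninjured *Dlk1*, a preadipocyte gene, was at 346 against 22.9 CPM, with a UMI in 58 of the 99 cells. *Thrsp*, a lipogenic gene, was there at 116 against 4.001 CPM, with a UMI in 37 of the 99 cells. *Car3* had the first rank by ratio in Uninjured, on 5 of the 99 cells. *Fabp4* was at 151 against 8.19 CPM there, on 3 of the 99 cells. *Smim41* and *Cst6*, of the same ranked list, had a UMI in 58 and 34 of them. *Dlk1* had a UMI in 10 of the 33 cells of 1 dpi and in 7 of the 22 cells of 3 dpi. What kind of cell these are was not tested.

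*Spic*, the transcription factor that red-pulp macrophages need and that haem induces in monocytes, was rare. C1q macrophages had 0, 9, 4 and 2 UMIs and classical monocytes 3, 24, 0 and 1 UMIs. In MSC lineage cells there was none in any library, and the floor of 3 UMIs allows 0.0389 CPM in Uninjured and 0.0885 CPM at 1 dpi. At 1 dpi 5 macrophages had a *Spic* UMI, and in these *Hmox1* stood at 1768 CPM (97 UMIs), against 390 CPM in the 308 without *Spic*. The 5 cells held 3 to 60 *Hmox1* UMIs with a median of 10, and their median depth was 13978 UMIs against 6341.5. The 11 *Spic*-positive monocytes of 1 dpi had 650 against 254 CPM of *Hmox1*, with 0 to 22 UMIs per cell and a median of 3. In the same cells *Fth1* stood at 25681 against 12877 CPM in macrophages and at 21542 against 10318 CPM in monocytes, and *Slc40a1* had 0 UMIs. In so few cells that 0 allows up to 67.2 CPM in the macrophages and 35.3 CPM in the monocytes. The 4 *Spic*-positive macrophages of 3 dpi did not share the higher *Hmox1*, with 107 CPM (3 UMIs) against 172 CPM, and the 3 monocytes of Uninjured had no *Hmox1* UMI. These are values of few cells of 1 library each, and a cell with more UMIs is also more likely to show *Spic*.

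Counts of genes past 2-fold between successive libraries are set beside the same share of all genes. A gene entered with at least 30 UMIs over both libraries. In C1q macrophages 4 of 8 genes were past 2-fold at 1 dpi against Uninjured, where 21.4% of all genes were: *Slc11a2*, *Tfrc* and *Blvrb* higher and *Trf* lower. At 3 against 1 dpi 2 of 8 were (*Trf* higher and *Hmox1* lower, background 11.6%), and at 7 against 3 dpi 1 of 8 (*Trf* lower, background 15.1%). In classical monocytes it was 3 of 8 at 1 dpi (*Hmox1* and *Tfrc* higher and *Trf* lower, background 22.8%), 4 of 8 at 3 dpi (*Trf* higher and *Hmox1*, *Slc11a1* and *Blvrb* lower, background 12.1%) and 0 of 6 at 7 dpi (background 17.5%). In MSC lineage cells it was 2 of 9 at 1 dpi (*Slc11a1* and *Tfrc* higher, background 14.1%), 0 of 9 at 3 dpi (background 13.2%) and 3 of 9 at 7 dpi (*Slc40a1* higher and *Trf* and *Fth1* lower, background 18.2%). The *Slc11a1* step was from 0.389 to 1.30 CPM, on 30 and 44 UMIs. T cells and NK cells of 1 dpi had 1.55 and 1.10 CPM of *Slc11a1*, and carry-over of myeloid RNA was not tested. With so few genes in a comparison these counts are a description, and successive comparisons share a library. For the neutrophil steps given above the background was 29.5% at 1 dpi against Uninjured and 28.1% at 7 against 3 dpi. Uninjured held 50 neutrophils. The median log2 ratio of the genes at 1 dpi was 0.70 in macrophages, 0.39 in monocytes and 0.33 in MSC lineage cells, beside 0.18, 0.26 and 0.16 over all genes. At 7 against 3 dpi the median of all genes was -0.12, -0.23 and -0.05 in these classes, so small ratios there are to be read against a shifted centre.

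Around these genes, 49 others of haem and iron uptake, haem synthesis, storage, export, mitochondrial iron, sensing and NRF2 response were counted in the same way. In C1q macrophages 6 of 32 were at least 2-fold higher and 2 lower at 1 dpi (background 16.4% higher and 4.96% lower), 2 and 5 of 39 at 3 dpi (6.27% and 5.34%) and 3 and 5 of 33 at 7 dpi (4.15% and 11%). *Hfe*, the haemochromatosis gene product that senses transferrin-bound iron, had the same order as *Trf*, with 79.8, 9.32, 111 and 62.7 CPM. *Cd163*, the haemoglobin scavenger receptor of resident macrophages, stood at 47.3 CPM in Uninjured and 5.33 CPM at 1 dpi, 8.88-fold lower. *Bach1*, the haem-sensing repressor of *Hmox1*, was 2.60-fold higher at 1 dpi (85.7 and 223 CPM), and *Flvcr1*, a haem exporter, went from 4.43 to 30.6 CPM on 3 and 69 UMIs. *Srxn1*, an NRF2 target, was 3.74-fold lower at 3 than at 1 dpi, as *Hmox1* was 2.47-fold.

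In classical monocytes 10 of 40 of these genes were higher and 1 lower at 1 dpi (19.3% and 3.44%), 3 and 2 of 41 at 3 dpi (6.6% and 5.5%) and 1 and 7 of 32 at 7 dpi (2.99% and 14.5%). *Lcn2*, a siderophore-binding protein, stood at 2.11, 193, 829 and 109 CPM on 2, 1876, 1584 and 81 UMIs. It was also among the 10 leading genes of neutrophils, and other neutrophil genes had the same order in the monocyte class, with *Ngp*, a granule protein, at 0, 680, 2453 and 412 CPM and *S100a9* at 1.06, 2084, 7240 and 1449 CPM. Of the 6 neutrophil markers of the gate 2, 6, 6 and 5 had a UMI in monocytes, with a sum of 40.1, 112, 141 and 89.9 CPM, and *Ly6g*, *Retnlg*, *Cxcr2* and *Mmp9* were at 0 in Uninjured. The part of neutrophil RNA in the monocyte values was not tested. *Bach1* was 2.59-fold and *Fbxl5*, the iron sensor that marks IRP2 for breakdown, 2.51-fold higher at 1 dpi. *Hfe* dipped at 1 dpi here too, with 44.3, 16.3, 48.7 and 72.4 CPM.

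In MSC lineage cells 6 of 46 were higher and 1 lower at 1 dpi (8.91% and 5.17%), 4 and 2 of 46 at 3 dpi (6.79% and 6.43%) and 1 and 7 of 46 at 7 dpi (10.8% and 7.38%). *Slc39a14*, a zinc and iron importer for iron that is not bound to transferrin, stood at 26.4, 71.2, 202 and 58.6 CPM. *Steap4*, a metalloreductase, stood at 139, 289, 231 and 58.3 CPM and *Lcn2* at 20.5, 131, 56.3 and 8.72 CPM. All of these were higher at 1 dpi than in Uninjured and lower at 7 than at 3 dpi. *Cp*, ceruloplasmin, the ferroxidase that works with ferroportin, was 3.77-fold lower at 7 than at 3 dpi (140 and 37.2 CPM), the step at which *Slc40a1* was 27.5-fold higher. *Heph*, of the same iron export genes, went the other way by less than 2-fold, at 1.70 and 3.20 CPM on 91 and 182 UMIs. The 1 gene of the 46 that was at least 2-fold higher at 7 dpi was *Tfr2*, a transferrin receptor used in iron sensing, at 1.02 and 4.29 CPM. These lists were drawn up with earlier results of these libraries known.

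Over the 52 sums of a class and library, 8789 genes were ranked by Pearson correlation of log2(CPM + 10) with each of the 10. The points share libraries and lineages, so the ranks are a description. *Hmox1* was most like *Cstb* (r = 0.87), *Ly96* and *Ctsb*, and *Slc11a1* most like *Gm5150* (r = 0.89), *Fcgr4* and *Clec4d*. *Slc40a1* was most like *Mrgpra2b* (r = 0.83), *Chil1* and *Sgms2*, and *Trf* most like *Cd300c2* (r = 0.82), *Gm34455* and *Cd300a*. *Fth1* was nearest to *Atp6v1g1* (r = 0.86), *Sirpa* and *Nfe2l2*, the gene of NRF2, and *Ftl1* to its copy *Ftl1-ps1* (r = 0.88), *Plin2* and *Tgfbi*. *Tfrc* was nearest to *Rpgrip1* (r = 0.83), *Nxf1* and *Spns3*, *Slc11a2* to *Prmt3* (r = 0.75), *Itgav* and *Zfp451*, *Blvrb* to *Snx9* (r = 0.73), *Naglu* and *Bri3*, and *Spic* to *Ccl12* (r = 0.77), *Msr1* and *C3ar1*. The highest level of *Spic* in these sums was 4.48 CPM, on 2 UMIs, so its ranks rest on very few UMIs. That of *Slc11a2* was 23.5 CPM. Between the 10 genes the highest value was that of *Hmox1* with *Ftl1* (r = 0.81), and *Hmox1* stood at r = 0.76 with *Slc11a1* and with *Fth1*. The lowest value was that of *Slc40a1* with *Slc11a2* (r = -0.58), and *Hmox1* and *Tfrc* stood at r = -0.47.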

How the data were processed

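Single-cell RNA-seq was analysed from the raw UMI counts the authors deposited as a matrix per library, made with Cell Ranger 5.0.0 per the file headers. The submitters' processing notes also name Seurat 3.1.1 and mm10; whether the deposited counts precede any down-sampling is not given in the sources used here. Cells beyond 2 SD of log10 UMIs or genes, or over 10% mitochondrial UMIs, were left out, and the 7.5% with the highest Scrublet score were removed as doublets. A cell entered a class with UMIs of at least 3 of its 6 markers and a lead of 2 over other lineages. UMIs were summed per class and library and divided by the class total (CPM). Intervals are exact Poisson for levels, conditional binomial for ratios and Clopper-Pearson for shares, all at 95%. Ratios needed at least 30 UMIs over both libraries, and a level of 0 was read against a floor of 3 UMIs. Depth comparisons used cells thinned to 1000 UMIs. With 1 library per time point no test between time points was possible. The genes named were all 10, examples among the pathway genes past 2-fold between successive libraries, and for each of the 10 the 3 genes of at least 50 CPM in a class with the highest correlation; genes of the *Trf*-rich cells were picked after their values were seen. The members, lists and named genes were chosen with earlier results of these data known. The code for the ratio intervals was run on simulated Poisson sums with known folds, which checks the computation only. UMIs gathered in a few cells, as for *Trf*, were not simulated. Alternatives were the doublet, cell, gate, depth, scaling and low-count choices given in the closing section. Positions and stem-loops came from the GENCODE M21 annotation of GRCm38, promoter windows from RefSeq. Python 3.11.15, scanpy 1.11.5, scipy 1.17.1, numpy 2.4.6 and pandas 2.3.3 were used.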

Additional observations from a re-analysis of the deposited data

How the results depend on the processing

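Each time point is a single library, so the limit of every comparison is that library and its depth, and the median depth went down from Uninjured to 7 dpi. No paired analysis was possible because each time point has 1 library. The number of the 10 genes past 2-fold changed as follows. With cells thinned to 1000 UMIs it was 2 in C1q macrophages at 1 dpi against Uninjured and 1 in them at 3 against 1 dpi. After the same thinning it was 2 in classical monocytes at 3 against 1 dpi and 1 in MSC lineage cells at 1 dpi against Uninjured. In C1q macrophages at 1 dpi *Blvrb* was then no longer past 2-fold, while *Hmox1* was. *Slc11a2* and *Tfrc* left the count there as well, but with so few UMIs left this cannot show that their steps were lost. *Slc11a1* in thinned MSC lineage cells with 0 chondrocyte markers had a UMI in 4 cells of Uninjured and 4 of 1 dpi. These are too few to show whether its step at 1 dpi was lost. In C1q macrophages at 7 against 3 dpi the number was 0 without doublet removal, 0 with every deposited cell, 0 with a gate of 4 markers and 2 with no minimum of UMIs. With a gate of 4 markers it was 2 in classical monocytes and 1 in MSC lineage cells at 3 against 1 dpi. In classical monocytes at 7 against 3 dpi it was 1 with a minimum of 10 UMIs and 1 with none. The other counts stayed within 1.5 times their value. Neither the number of genes still tested under each setting nor the share of all genes stands beside these counts. They are a description, and a lower count does not by itself show that a change was lost. After thinning, *Slc11a2* and *Tfrc* in C1q macrophages at 1 dpi came to -0.64 and -0.057 on the log2 scale, on few UMIs. A thinned count of 0 is set to the floor of 3 UMIs, so these signs cannot be read as measured reversals. No other called ratio changed sign under these alternatives. Beside the counts, single values were labelled too: after thinning 35 stayed the same, 36 moved and 2 reversed. With the mean of per-cell CPM 24 moved, and with median-ratio size factors 20. The cause of these changes was not tested. The gates of 2 and 4 markers for the cycling division and the thinned chondrocyte marker division were chosen after seeing the data.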
